A study of Mus musculus with 14 samples.

Results

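The common response was taken as the RNAs whose level moved the same way, relative to untreated cells, after each of 3 unlike stresses: Lipofectamine, heat shock and benzyl alcohol. A probeset, the group of short probes that reports a transcript on the array, was a member when the mean of each of the 3 stress groups lay above the highest, or below the lowest, of the 5 control arrays. By this rule 850 of 22626 probesets (3.76%) were members, chosen by their measured log2 signals in treated and control cells. Of these, 327 (1.45% of all probesets) lay above the control arrays and belong to 274 named genes, and 523 (2.31%) lay below them and belong to 458. The rule used the comparison of every stress with the control arrays, so these levels are given as a description with no test, and tests were made between the stresses alone.

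B16-F10 is a mouse melanoma cell line from the C57BL/6J strain, and its RNA was measured on 14 Affymetrix arrays. Each group consists of cultures of this single line, labelled as biological replicates, and the sources used here do not say how the cultures were separated, so the spread between arrays may be partly technical. Control cells (5 arrays) were left untreated in medium with serum. Heat-shocked cells (3 arrays) were held at 42.5°C for 1 h with 30 min of recovery. Lipofectamine (3 arrays), a cationic lipid used to carry DNA into cells, was given without DNA for 3 h in Opti-MEM medium, with 30 min of recovery in medium with serum. The untreated controls did not share this change of medium, and the effect of the lipid and that of the medium cannot be told apart. Benzyl alcohol (3 arrays), an agent that fluidizes membranes, was given at 40 mM for 1 h, with a recovery of 3 h in the protocol and of 30 min in the description of the design, so these cells may have been sampled later than the others. In bulk samples, fewer cells with an RNA and less of it per cell cannot be told apart.

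Cells answer damage to their proteins with the heat shock response, in which the transcription factor HSF1 binds heat shock elements and switches on chaperones that hold, refold or deliver unfolded proteins. A separate and faster answer is that of the immediate early genes, which encode transcription factors such as those of the FOS, EGR and NR4A families and are induced by growth signals and by many stresses without new protein synthesis. Both kinds of response are brief and are shut off again as the cell recovers.

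All values are log2 signals after RMA, which corrects background, normalizes the arrays to each other and summarizes the probes, so a difference of 1 is a doubling. Array medians were between 7.03 and 7.12 and no array was identical to another. The pigment cell genes Dct, Pmel, Tyrp1 and Sox10, which mark melanocytes, had control means of 13.21, 13.21, 12.81 and 11.56, while Ptprc and Cdh1, which mark leukocytes and epithelia, were at 4.61 and 3.46 near the floor of the scale. Other markers of such cells were not as low, with the macrophage gene Csf1r at 7.98 and the epithelial gene Epcam at 6.25. Some arrays stand apart. The 18S ribosomal RNA probeset read 10.27 on heat shock array 1 and 8.43 on benzyl alcohol array 1, against at most 8.10 on the control arrays. The difference between the 3′ and 5′ probesets of Actb, a sign of RNA quality, was 0.39 on heat shock array 1 and at most 0.15 on the control arrays. For Gapdh this difference was 0.01, 0.04 and 0.13 on heat shock arrays 1, 2 and 3. It was 0.07 on benzyl alcohol array 3 and −0.14 to −0.03 on the control arrays. All heat shock arrays thus lay above the control arrays by this measure. Lipofectamine array 1 lay between the other Lipofectamine arrays at 66.9% of probesets, where this share was 16.4% to 45.2% for the other treated arrays. Without heat shock array 1 the rule gave 328 higher and 575 lower members. The part of these technical values in the results below was not tested.

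Most shared changes were small. The median higher member was above the control mean by 0.18 after Lipofectamine, 0.22 after heat shock and 0.17 after benzyl alcohol, and the median lower member was below it, with differences of −0.28, −0.28 and −0.26. Of the higher members 286 cleared the control range by less than 0.1 in their nearest group, and of the lower members 396 did. A strong core was found on the higher side alone: 16 higher probesets of 12 genes and 1 lower probeset differed from the control mean at least 1.5-fold with each stress, and 6 higher and 0 lower probesets did so at least 2-fold. The mean of the 3 changes was at least 2-fold in 18 higher and in 0 lower probesets. When not the group means but every one of the 9 treated arrays had to lie beyond the control arrays, 26 higher (0.115% of all probesets) and 92 lower (0.407%) remained. The balance of the sides depends on scaling, since higher probesets were 38.5% of members as deposited, 53.1% after quantile normalization was repeated and 50.1% after array medians were made equal.

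**Figure D1:**
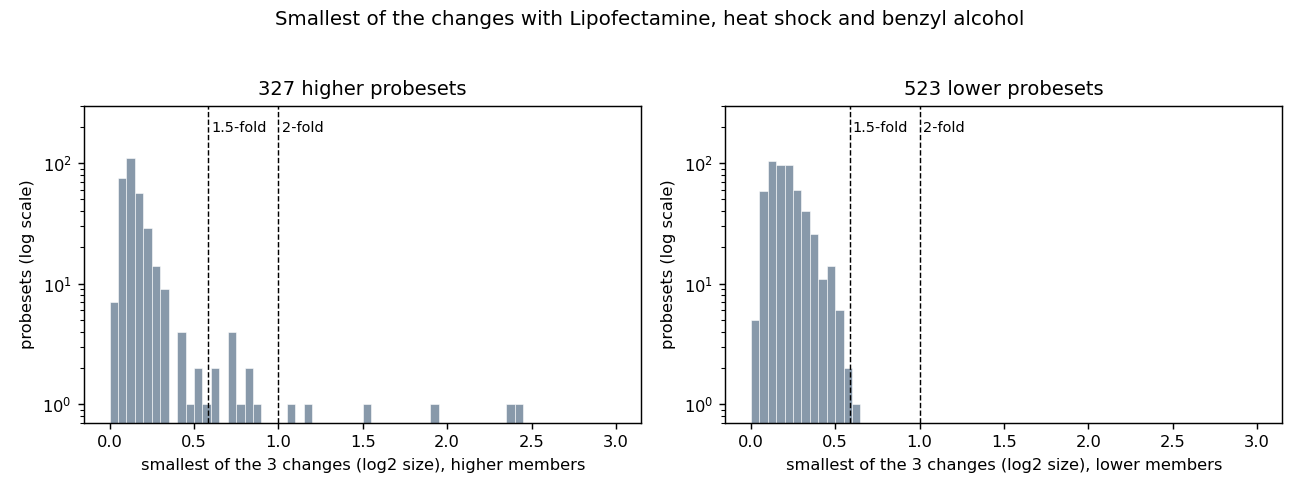
Number of probesets (log scale) by the smallest of the 3 changes from the control mean, as a log2 size, for the 327 higher and 523 lower members; dashed lines mark 1.5-fold and 2-fold. Nearly all members lie below the 1.5-fold line, 16 higher probesets and 1 lower lie beyond it, and the 6 beyond the 2-fold line are all higher.

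The members at the edge of the rule show how shallow it is. Just inside on the higher side were a probeset with no symbol, Tm7sf3 and Aqp8, with mean changes of 0.17, 0.24 and 0.20, and just outside were Hoxa9, Krt19 and Eya3 with 0.12, 0.09 and 0.18. Just inside on the lower side were Klhdc3, Pkmyt1 and Copg2 with −0.16, −0.20 and −0.16, and just outside were Cacna1a, Cux1 and Fgfr1op2 with −0.06, −0.11 and −0.29. Other probesets of the same genes give a view that the rule did not use directly, although they share the arrays. Of 282 further probesets of the genes with a higher member, 92 (32.6%) had all 3 changes above 0, against 19.7% of all probesets, and of 482 further probesets of genes with a lower member 203 (42.1%) had all 3 below 0, against 17.1%. The further probesets leave out those that were themselves members on the same side, while the shares of all probesets include members. In 4 genes (Brat1, Ddx5, Pex6 and Tm7sf3) different probesets were members on opposite sides.

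HSF1 targets made up 6 of the 12 genes in the core of the higher members. They were the chaperones and partners Bag3, Dnajb1, Hspa1b, Hspb1, Hspb8 and Hsph1, with Hspb1 in the core by its most changed probeset alone. Of the other genes at least 1.5-fold higher with each stress, 2 are immediate early genes (Fos and Nr4a1), and the rest are Gadd45g, Zfand2a, Chka and Dedd2. Among the 16 probesets of the core the change was largest with heat shock in 14 and with Lipofectamine in 2, and it was smallest with Lipofectamine in 11 and with benzyl alcohol in 5.

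Hspa1b, the stress-inducible member of the HSP70 chaperones, had, narrowly, the largest shared change. Its log2 signal was 5.19, 5.44, 4.30, 5.14 and 5.13 on control arrays 1 to 5, 7.48, 7.50 and 7.38 after Lipofectamine, 10.96, 11.08 and 11.07 after heat shock and 10.06, 8.33 and 11.20 after benzyl alcohol. No treated array came near the control arrays, Lipofectamine formed a tight low step, heat shock a tight high one, and benzyl alcohol spread from between these steps to just above the second. Relative to the control mean these are 5.32-fold, 63.8-fold and 28.3-fold. The level after Lipofectamine was below that after heat shock (difference between heat shock and Lipofectamine 3.58 ± 0.47 SE, limma adjusted p = 0.000621) and below that after benzyl alcohol (difference −2.41 ± 0.47 SE, limma adjusted p = 0.0045). The other 2 Hspa1b probesets gave the same order, with changes of 2.36, 5.29 and 4.38 and of 1.94, 5.17 and 4.0 after Lipofectamine, heat shock and benzyl alcohol. Hspa1a is a near-identical copy, so signal may be shared between the genes. Its own probeset, control mean 4.32, was no member, with changes of 0.06, 3.22 and 1.88. The lead of Hspa1b was narrow, with a mean change of 21.3-fold against 20.4-fold at Hspb1. Without control arrays 1 and 3 the order was reversed, with mean log2 changes of 4.21 at Hspa1b and 4.54 at Hspb1. Without control arrays 2, 4 and 5 they were 4.70 and 4.06.

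Hspb1 (HSP25), an ATP-independent chaperone that keeps unfolding proteins soluble and protects actin filaments, had larger changes than Hspa1b with heat shock and benzyl alcohol and a smaller one with the lipid. On its most changed probeset the signals were 6.48, 6.15, 6.86, 6.18 and 6.26 on the control arrays, 7.12, 7.33 and 6.88 after Lipofectamine, 12.68, 12.91 and 13.32 after heat shock and 12.18, 11.49 and 12.71 after benzyl alcohol. The lowest Lipofectamine array only just cleared the highest control array, whereas the other stresses lay far above. The change after Lipofectamine was 1.65-fold, against 96.0-fold with heat shock and 53.5-fold with benzyl alcohol, and the differences of 5.86 ± 0.26 SE between heat shock and Lipofectamine and of −5.02 ± 0.26 SE between Lipofectamine and benzyl alcohol had limma adjusted p of 2.53e-09 and 2.64e-08. Heat shock and benzyl alcohol differed by 0.84 ± 0.26 SE, with a limma adjusted p of 0.0601. On the brightest Hspb1 probeset this difference was 0.81 with a limma adjusted p of 0.0227, a call lost on leaving out heat shock array 1, 2 or 3 (0.0596, 0.0649 and 0.105) or benzyl alcohol array 1 or 2 (0.0603 and 0.0752). The change after Lipofectamine on that probeset was 1.44-fold, below the 1.5-fold limit of the core.

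Dnajb1, a J-domain protein that delivers clients to HSP70 and drives its ATP cycle, showed a graded order. Its signals were 8.73, 9.11, 8.88, 9.39 and 9.50 on the control arrays, 9.86, 9.92 and 9.76 after Lipofectamine, 12.38, 12.54 and 12.72 after heat shock and 11.20, 10.61 and 12.02 after benzyl alcohol. The 3 stresses and the control did not overlap with one another. Heat shock was above Lipofectamine by 2.70 ± 0.26 SE (limma adjusted p = 5.48e-05) and Lipofectamine below benzyl alcohol (difference −1.43 ± 0.26 SE, limma adjusted p = 0.00384). The difference of 1.27 between heat shock and benzyl alcohol (limma adjusted p = 0.0135) was lost without heat shock array 2 or 3 or benzyl alcohol array 1 (0.056, 0.0655 and 0.0699).

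Bag3, which releases HSP70 from its clients and ties it to small heat shock proteins, followed the same order. Its signals were 8.95, 8.77, 8.98, 8.52 and 8.23 on the control arrays, 9.51, 9.79 and 9.20 after Lipofectamine, 11.21, 11.03 and 11.60 after heat shock and 10.61, 9.66 and 11.72 after benzyl alcohol. All treated arrays were above all control arrays, and Lipofectamine was lowest apart from a single benzyl alcohol array that lay among its values. Heat shock exceeded Lipofectamine by 1.78 ± 0.36 SE (limma adjusted p = 0.00879). Hspb8, the small heat shock protein that binds BAG3, was the most even of the probesets at least 2-fold higher with each stress, by the ratio of range to mean change. Its changes were 1.23, 1.84 and 1.18, and the 3 stresses were not called different by limma's F-test among the stresses (adjusted p = 0.272, but 0.019 without control arrays 1 and 3 and 0.0258 without control arrays 2, 4 and 5). Its control arrays were not alike, at 7.83, 6.89, 8.05, 6.79 and 6.57, and its mean change of 1.42 became 1.89 without control arrays 1 and 3 and 0.70 without control arrays 2, 4 and 5.

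Hsph1, the HSP110 exchange factor of HSP70, lay between 8.42 and 9.10 on the control arrays, between 9.30 and 9.73 after Lipofectamine, between 10.32 and 10.63 after heat shock and between 9.87 and 10.82 after benzyl alcohol. Its changes were 0.77, 1.76 and 1.62, and the stresses differed by the limma F-test (adjusted p = 0.01). Dnaja4, another J-domain protein, was between 6.38 and 6.75 on the control arrays. It read 6.80, 6.48 and 7.31 after Lipofectamine, with 1 array inside the control range, 8.67, 8.46 and 9.29 after heat shock and 7.67, 7.63 and 8.40 after benzyl alcohol, and heat shock exceeded Lipofectamine by 1.95 ± 0.24 SE (limma adjusted p = 0.000441). Without Lipofectamine array 3, Dnaja4 was no longer a member. Zfand2a, a zinc finger protein that joins the proteasome under proteotoxic stress, had 4 probesets, of which 3 were members, with mean changes of 1.22, 1.22 and 1.11. Its most changed probeset was a member with 11 of the 14 single arrays left out and not without Lipofectamine array 1, Lipofectamine array 2 or benzyl alcohol array 3. The mean change of that probeset, 1.22, became 1.68 without control arrays 1 and 3 and 0.53 without control arrays 2, 4 and 5.

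**Figure D2:**
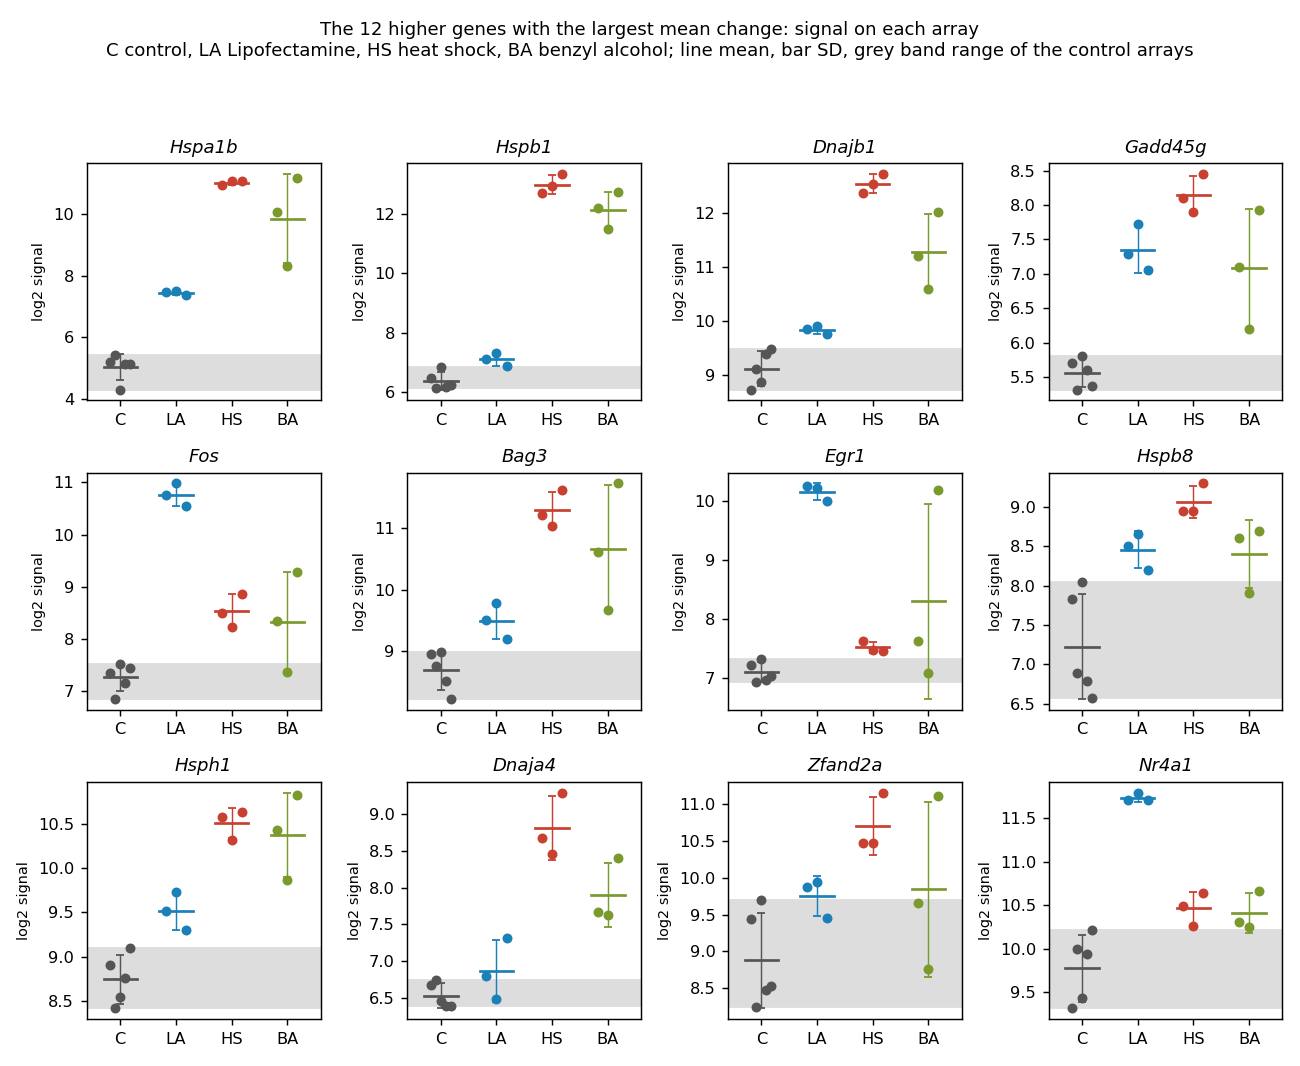
Log2 signal on each array (points) for the 12 higher genes with the largest mean change, in control (C), Lipofectamine (LA), heat shock (HS) and benzyl alcohol (BA) cells; lines are means, bars SD and the grey band the range of the control arrays. The chaperone genes step up from Lipofectamine to heat shock, Fos, Egr1 and Nr4a1 peak after Lipofectamine, and benzyl alcohol array 2 is the lowest and array 3 the highest of its group in all 12 panels.

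Across the whole list of HSF1 targets, 12 of 22 measured genes were higher members and 0 lower, read from the brightest probeset of each gene, where 1.49% of all genes were higher and 2.60% lower. Besides those above, they were Hspa8 and Hsp90aa1, the constitutive HSP70 and the inducible cytosolic HSP90, the J-domain protein Dnaja1, the HSP110 relative Hspa4l and the HSP90 partner Chordc1. In 9 of the 12 the change was largest with heat shock and in 3 with benzyl alcohol, and it was smallest with Lipofectamine in 10. The abundant chaperones changed least and most evenly: Hspa8 had changes of 0.47, 0.48 and 0.40 and Dnaja1 of 0.53, 0.59 and 0.81 after Lipofectamine, heat shock and benzyl alcohol. The 10 genes that were no members include Cryab, Dnajb4, Ahsa1, Cacybp and the mitochondrial chaperones Hspd1 and Hspe1. Cryab had changes of 0.02, 1.31 and 1.17 and Dnajb4 of 0.62, 2.16 and 0.09. This list, like all lists here, was chosen with earlier results known.

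The letters GAANNTTC, 2 inverted units of the heat shock element that read the same on both strands, were counted in all promoters. Within 250 bases before and 50 after the gene start (RefSeq, GRCm38.p6), 27 of 215 genes with a higher member held it (12.6%), as did 22 of 379 with a lower member (5.80%), 7.56% of all genes measured and 9.04% of all genes in the promoter table. Of the 12 core genes 5 held it. The stricter form, GAANNTTC followed directly by NNGAA, or 3 units on either strand, was held by 2 higher genes (0.930%), Hsph1 among them, against 0.577% of genes measured, and each such match also counts as a match of the shorter form. The windows below are those upstream of the start in named chaperone genes, with the element in capitals, 5′ to 3′ on the strand of the gene. They lie at chr17:34959324-34959353 (minus strand, motif at −104), chr5:135887791-135887820 and chr5:135887811-135887840 (plus, −117 and −97) and chr9:54699458-54699487 and chr9:54699496-54699525 (plus, −90 and −52).
Hspa1b: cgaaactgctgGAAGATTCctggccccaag
Hspb1 distal: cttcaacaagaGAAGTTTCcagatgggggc
Hspb1 proximal: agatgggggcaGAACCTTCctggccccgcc
Dnaja4 distal: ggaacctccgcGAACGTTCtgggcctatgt
Dnaja4 proximal: gcctcctggcgGAACCTTCcgccggcgccg
The matches describe the sequence and say nothing of binding in these cells.

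The core also held a growth arrest gene and a pair of immediate early genes. Gadd45g, a stress sensor that activates the p38 and JNK kinases, had signals of 5.71, 5.32, 5.80, 5.61 and 5.38 on the control arrays, 7.28, 7.72 and 7.06 after Lipofectamine, 8.10, 7.90 and 8.45 after heat shock and 7.11, 6.21 and 7.92 after benzyl alcohol. All 9 treated arrays were above the control arrays, with heat shock highest apart from 1 benzyl alcohol array and the values of Lipofectamine and benzyl alcohol mixed. These are 3.45-fold, 5.99-fold and 2.85-fold, and the F-test among the stresses gave a limma adjusted p of 0.0512 (0.0277 without control arrays 1 and 3 and 0.0372 without control arrays 2, 4 and 5). Of the 25 measured p53 and growth arrest genes it was the only member by brightest probeset. Gadd45b, named here after its values were seen, was at 0.28, 0.45 and 1.35 from the control mean after Lipofectamine, heat shock and benzyl alcohol, with all 9 treated arrays above the control arrays.

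Fos, a subunit of the AP-1 transcription factor, was highest after Lipofectamine, where most of the chaperones were lowest. Its signals were 7.36, 6.85, 7.52, 7.16 and 7.44 on the control arrays, 10.76, 10.98 and 10.55 after Lipofectamine, 8.51, 8.22 and 8.87 after heat shock and 8.35, 7.37 and 9.28 after benzyl alcohol. The Lipofectamine arrays stood well above all others, and 1 benzyl alcohol array lay within the control range. Heat shock was below Lipofectamine (difference −2.23 ± 0.33 SE, limma adjusted p = 0.00176) and Lipofectamine above benzyl alcohol by 2.43 ± 0.33 SE (limma adjusted p = 0.000652). Heat shock and benzyl alcohol differed by 0.20 ± 0.33 SE (limma adjusted p = 0.805).

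Nr4a1, an orphan nuclear receptor, had the same form on a smaller scale. Its signals were 9.32, 10.00, 9.43, 9.93 and 10.21 on the control arrays, 11.70, 11.79 and 11.70 after Lipofectamine, 10.49, 10.27 and 10.64 after heat shock and 10.30, 10.25 and 10.67 after benzyl alcohol. Heat shock and benzyl alcohol overlapped each other and lay just above the control arrays. Lipofectamine exceeded them by 1.27 and 1.32 (differences −1.27 ± 0.20 SE for heat shock minus Lipofectamine and 1.32 ± 0.20 SE for Lipofectamine minus benzyl alcohol, limma adjusted p of 0.00235 and 0.00108). Its mean change of 1.09 was 0.82 without control arrays 1 and 3 and 1.49 without control arrays 2, 4 and 5.

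Egr1, a zinc finger transcription factor, was a member by a thinner margin. It read 7.22, 6.93, 7.32, 6.98 and 7.05 on the control arrays, 10.25, 10.21 and 9.99 after Lipofectamine, 7.63, 7.48 and 7.47 after heat shock and 7.64, 7.09 and 10.18 after benzyl alcohol. Benzyl alcohol array 3 was as high as the Lipofectamine arrays, while array 2 of that group lay within the control range. Lipofectamine exceeded heat shock (difference −2.63 ± 0.50 SE for heat shock minus Lipofectamine, limma adjusted p = 0.00615). The call of Lipofectamine over benzyl alcohol (1.85, limma adjusted p = 0.0242) was lost without any 1 Lipofectamine array (0.0809, 0.067 and 0.0564) and without benzyl alcohol array 1 or 2 (0.101 and 0.099). Maff, a small Maf factor, was highest after benzyl alcohol: its changes were 0.98, 0.24 and 1.62, and heat shock was below benzyl alcohol by the difference −1.38 ± 0.16 SE (limma adjusted p = 0.000388).

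Of the 46 measured immediate early genes, 7 were higher members (15.2%, against 1.49% of all genes) and 1, Myc, was lower. The 7 were Fos, Egr1, Egr2, Ier5, Nr4a1, Nr4a2 and Maff, and their change was largest with Lipofectamine in 5 and with benzyl alcohol in 2. Several immediate early genes with large changes were no members. Atf3 had changes of −0.05, 2.99 and 0.37, Jun of 0.48, 2.56 and 0.21, Rgs2 of 2.12, −0.06 and 1.01 and Klf10 of −1.14, −1.09 and 0.86 after Lipofectamine, heat shock and benzyl alcohol. These non-members are named after their values were seen.

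The TATA box, TATAAA on either strand, was held in a promoter of 21.9% of the genes with a higher member and of 6.07% of those with a lower member, against 11.9% of genes measured and 15.7% of all genes in the promoter table. Higher members were dimmer than probesets at large (median signal 6.45 against 7.08) and lower members brighter (8.06), so the comparison was repeated, after the data had been seen, among probesets with a mean signal of at least 6. It then gave 21.4% and 6.40% against 10.0%. The AP-1 site TGANTCA, searched on both strands, was held by 10.7% and 3.43% of these genes against 7.69% of genes measured and 8.97% of the table, and by 9.16% and 2.91% against 6.70% at a signal of at least 6. Other motifs were searched as well. The cyclic AMP response element gave 1.86% and 2.37% against 3.00% of genes measured, and the antioxidant response element 18.1% and 15.8% against 16.3%. The E-box gave 13.5% and 10.8% against 10.8%, and the CCAAT box 44.2% and 40.9% against 42.3%. The CArG box gave 3.26% and 1.06% against 1.75%, but 0.763% and 0.872% against 1.54% at a signal of at least 6. Among the core genes other than Chka and Dedd2, whose windows were not listed, only Gadd45g and Fos held the TATA box. Their windows lie at chr13:51846636-51846665 and chr12:85473845-85473874 (both plus strand, box at −27 and −33), with the box in capitals.
Gadd45g: gccgagcctgtcTATAAAagggctctcccg
Fos: tcacagcgcttcTATAAAggcgccagctga
Genes with a higher member had a median span of 20.5 kb and those with a lower member of 24.1 kb, against 20.1 kb for all genes measured. Among members with all 9 treated arrays outside the control range, the medians were 12.5 kb for 22 higher genes and 31.9 kb for the lower ones.

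The lower members were more numerous, and their median mean change was −0.29, against 0.20 for the higher members, but none had a mean change of 2-fold. Myc, which drives growth and ribosome production, was lower with all 3 stresses. Its signals were 9.69, 9.47, 9.70, 9.64 and 9.73 on the control arrays, 9.11, 9.06 and 8.84 after Lipofectamine, 8.00, 8.05 and 8.47 after heat shock and 9.35, 9.28 and 9.16 after benzyl alcohol. All 9 treated arrays were below the control arrays, heat shock lowest and without overlap with the other stresses. The difference was −0.83 ± 0.13 SE between heat shock and Lipofectamine and −1.09 ± 0.13 SE between heat shock and benzyl alcohol (limma adjusted p of 0.00229 and 0.000388), while Lipofectamine and benzyl alcohol differed by −0.26 ± 0.13 SE (limma adjusted p = 0.217).

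Clk2, a kinase that phosphorylates SR splicing factors, was the only gene at least 1.5-fold lower with each stress. Its signals were 9.16, 8.81, 9.10, 8.98 and 8.97 on the control arrays, 8.36, 8.39 and 8.26 after Lipofectamine, 8.26, 7.87 and 8.12 after heat shock and 8.55, 8.57 and 8.03 after benzyl alcohol. The stresses overlapped one another and none overlapped the control arrays. The F-test did not call them different (limma adjusted p = 0.287). Ogt, the enzyme that adds O-linked N-acetylglucosamine to nuclear and cytosolic proteins, was similar, with changes of −0.53, −0.92 and −0.73, all 9 treated arrays below the control arrays and a limma F-test adjusted p of 0.18. Txnip, an inhibitor of thioredoxin and of glucose uptake, also had all treated arrays below the control range, with changes of −0.72, −0.57 and −0.85 and a limma F-test adjusted p of 0.744. Its control arrays were uneven, at 9.46, 8.10, 8.81, 8.14 and 8.29, and its mean change of −0.72 became −0.33 without control arrays 1 and 3 and −1.29 without control arrays 2, 4 and 5.

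Asxl1, a chromatin protein that works with a histone H2A deubiquitinase, read 8.85, 9.25, 8.94, 9.36 and 9.04 on the control arrays, 7.72, 7.93 and 7.39 after Lipofectamine, 8.19, 8.12 and 8.15 after heat shock and 9.13, 8.74 and 8.21 after benzyl alcohol. Lipofectamine and heat shock lay clear of the control arrays, and benzyl alcohol reached into them. Lipofectamine was below benzyl alcohol (difference −1.02 ± 0.20 SE, limma adjusted p = 0.00459). Without benzyl alcohol array 3, Asxl1 was no longer a member. The order was reversed at Ldb1, an adaptor of LIM domain transcription factors, with changes of −0.42, −0.70 and −1.11 and Lipofectamine above benzyl alcohol by 0.69 ± 0.15 SE (limma adjusted p = 0.00763). Klf15, a Kruppel-like factor of metabolism, had the largest mean change on this side, −0.93, with changes of −0.48, −1.0 and −1.30. Lipofectamine was above benzyl alcohol at Klf15 by 0.82 ± 0.18 SE (limma adjusted p = 0.00982), a call lost without benzyl alcohol array 3 (0.0528), and without Lipofectamine array 3 the gene was no member.

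At Odf2, a protein of centriole appendages, heat shock had the smallest effect. Its signals were 10.32, 9.99, 10.18, 10.10 and 10.05 on the control arrays, 9.20, 9.42 and 9.26 after Lipofectamine, 9.84, 9.73 and 9.70 after heat shock and 9.18, 9.14 and 9.21 after benzyl alcohol. No treated array reached the control range, and heat shock did not overlap the other stresses. It exceeded benzyl alcohol by 0.58 ± 0.10 SE (limma adjusted p = 0.00602). The remaining genes of the 12 largest were Trub2, a mitochondrial pseudouridine synthase, Pnn, a nuclear speckle protein of splicing, Nckap5l, a microtubule-binding protein, and Sgip1, an endocytic adaptor, with mean changes of −0.85, −0.72, −0.71 and −0.71. Trub2 and Nckap5l were lowest after Lipofectamine, where the differences from benzyl alcohol were −0.98 ± 0.22 SE and −0.60 ± 0.12 SE (limma adjusted p of 0.01 and 0.00586). Trub2 was no member without benzyl alcohol array 3, and Pnn was none without benzyl alcohol array 2.

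**Figure D3:**
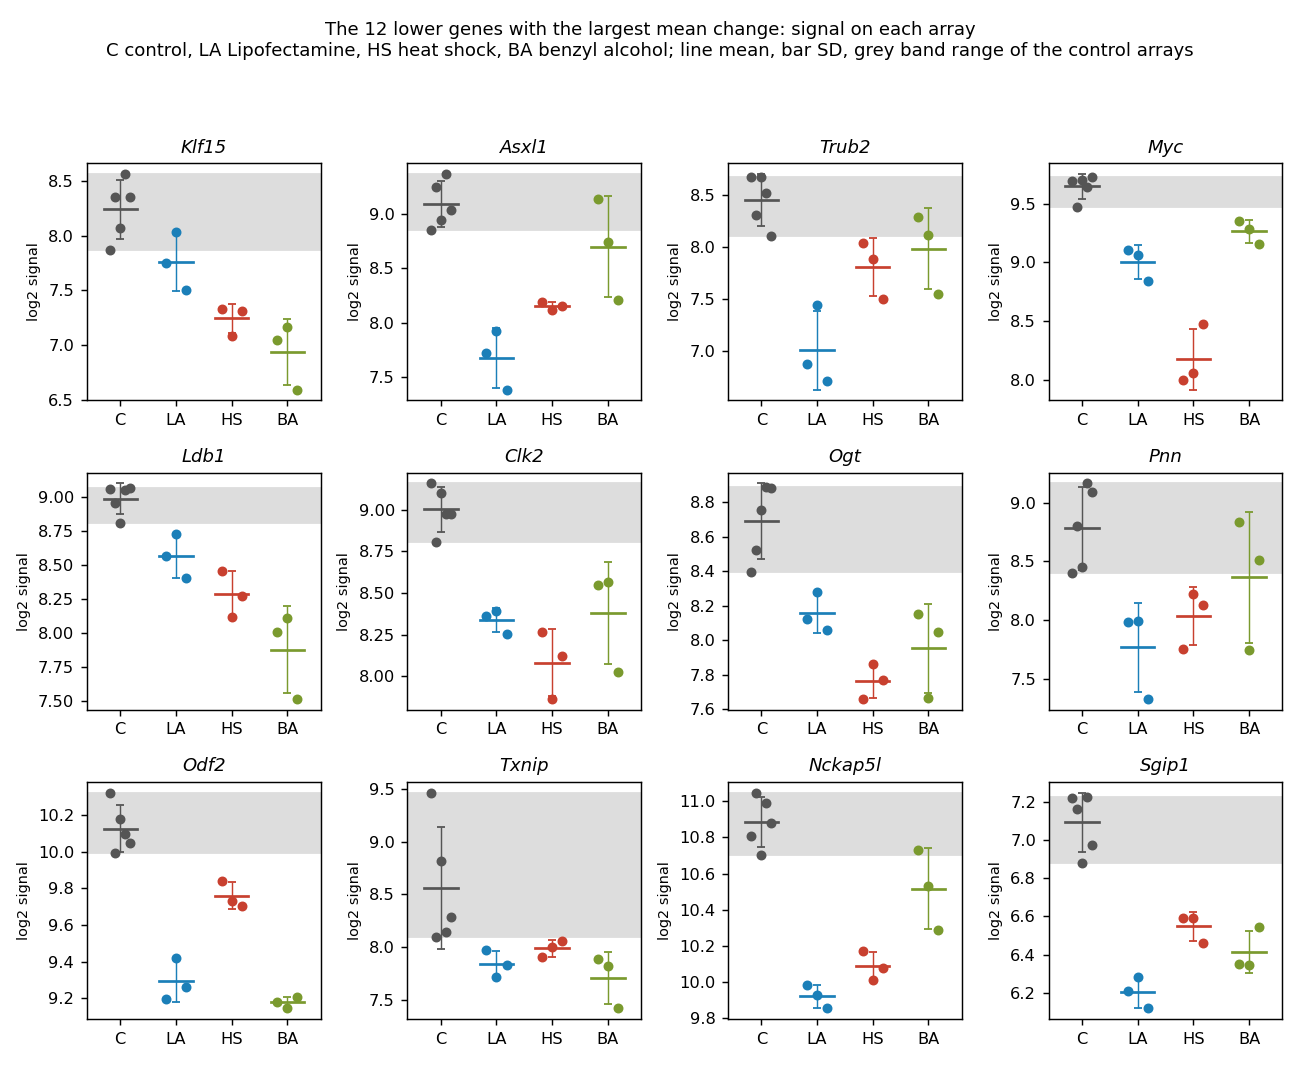
Log2 signal on each array (points) for the 12 lower genes with the largest mean change, in control (C), Lipofectamine (LA), heat shock (HS) and benzyl alcohol (BA) cells; lines are means, bars SD and the grey band the range of the control arrays. Treated arrays of Myc, Clk2, Ogt, Odf2, Ldb1, Txnip and Sgip1 all lie below the band, while those of Asxl1, Trub2, Pnn and Nckap5l reach into it after benzyl alcohol.

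The order of the stresses was tested over all probesets. The rule used the same 3 group means, on the condition that all lay on 1 side of the control arrays, so the shares of members called are a description and nothing is read from their distance to the shares of all probesets. By limma's F-test 78 members (9.18%) differed among the 3 stresses, 26 higher and 52 lower, against 15.8% of all probesets. Between heat shock and Lipofectamine 43 members differed (5.06%, against 5.71% of all probesets), 27 with heat shock above and 16 below (1.37% and 4.34% of all). Between heat shock and benzyl alcohol 25 did (2.94%, against 7.22%), 14 with heat shock above and 11 below (1.78% and 5.44% of all), and between Lipofectamine and benzyl alcohol 61 did (7.18%, against 11.9%), 16 with Lipofectamine above and 45 below (5.22% and 6.71% of all). Among the 327 higher members the change was largest with heat shock in 59.9%, with Lipofectamine in 23.5% and with benzyl alcohol in 16.5%. Among the 523 lower members these shares were 38.0%, 37.5% and 24.5%. The same shares over all probesets were not counted. Over all genes the median change was 0.04 with heat shock, −0.02 with Lipofectamine and 0.02 with benzyl alcohol. The part of this offset in the shares was not tested. The called higher members had a median range of 1.19 between their largest and smallest change, and 14 of the 26 had a range of at least 1. For the 52 called lower members the median range was 0.53 and 2 had a range of at least 1. These counts depend on single arrays. The F-test called 45 of 871 members without Lipofectamine array 1 and 45 of 739 without benzyl alcohol array 3. It called 159 of 1459 members without control array 1 and 172 of 1384 without control array 3. Over all 22626 probesets it called 1844, 2417, 4216 and 4356 in these settings, against 3570 with all arrays. For the pairs, called members are given without their share, so a shift in the count need not be a shift in the share. Between heat shock and benzyl alcohol 6, 4 or 4 members were called when heat shock array 1, 2 or 3 was dropped, 13 when Lipofectamine array 1 was, 8 when benzyl alcohol array 1 was, and 55 or 83 when control array 1 or 3 was. Between heat shock and Lipofectamine the count was 18 on dropping Lipofectamine array 1, 22, 22 or 26 on dropping heat shock array 1, 2 or 3, and 79 or 113 on dropping control array 1 or 3. Between Lipofectamine and benzyl alcohol it was 35 or 34 on dropping Lipofectamine array 1 or 3, 29 on dropping benzyl alcohol array 3, and 129 or 100 on dropping control array 1 or 3.

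**Figure D4:**
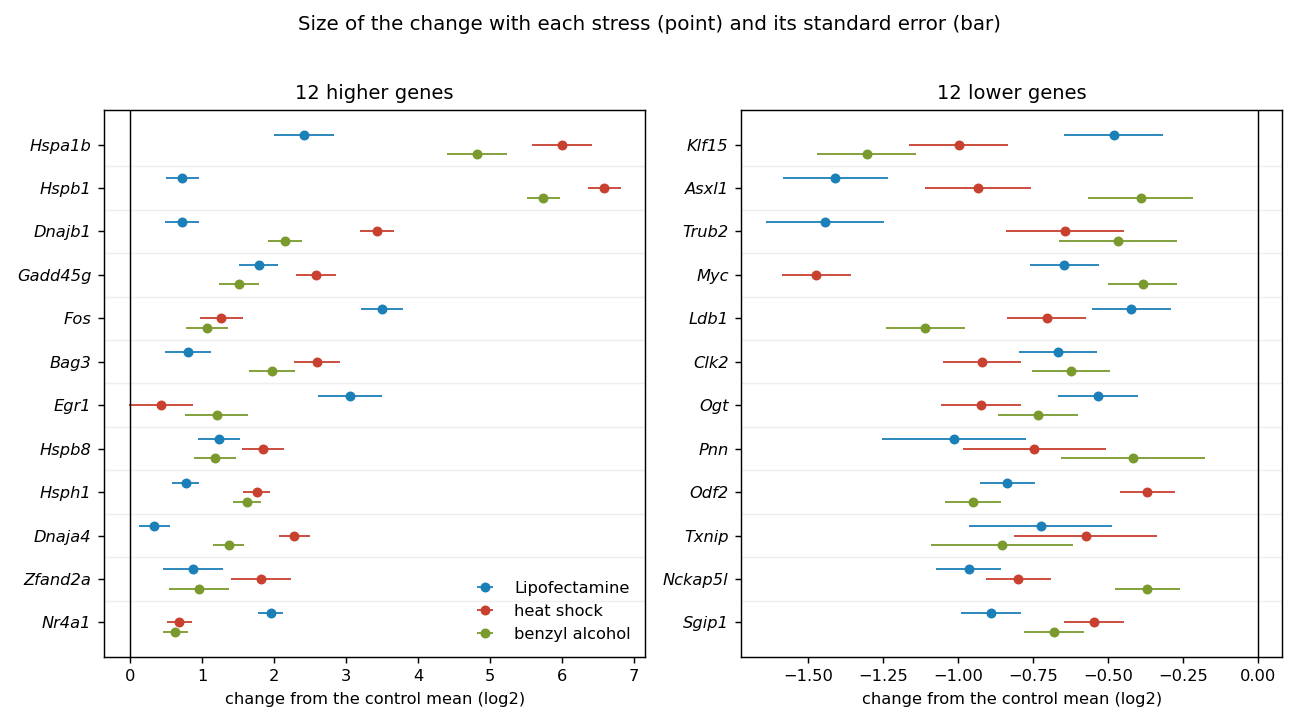
Change from the control mean (log2, points) with its standard error (bars) after Lipofectamine, heat shock and benzyl alcohol for the 12 higher and 12 lower genes with the largest mean change. Heat shock is largest for the chaperones, Lipofectamine for Fos, Egr1 and Nr4a1, and the lower genes have no common order, with Myc lowest after heat shock, Asxl1 and Trub2 after Lipofectamine and Klf15 and Ldb1 after benzyl alcohol.

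The counts for the gene lists are set beside the shares of all genes, 1.49% higher and 2.60% lower. Of 41 lists 12 had none, and 4 had at least 10% of their measured genes on the higher side: HSF1 targets, immediate early genes, and 2 small lists of metals and of macrophage markers. In the zinc response 2 of 5 genes were higher, the metal buffer Mt1 and the zinc exporter Slc30a1. Mt1 read between 12.33 and 12.58 on the control arrays, 13.38, 13.27 and 13.22 after Lipofectamine, 12.74, 12.71 and 12.82 after heat shock and 12.67, 12.79 and 12.50 after benzyl alcohol. Lipofectamine stood above the other stresses, 1 benzyl alcohol array lay within the control range and the remaining arrays lay just above it. It exceeded benzyl alcohol by 0.63 ± 0.10 SE (limma adjusted p = 0.00163). Slc30a1 had changes of 0.75, 0.15 and 0.55 and was no member without heat shock array 2.

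Lists for other stress responses are given next. None of 21 NRF2 targets and none of 27 endoplasmic reticulum chaperones was a member. At the shares of all genes, 1.49% higher and 2.60% lower, lists of this size may hold none, so nothing is read from these counts. Their median changes were 0.96, 0.41 and −0.20 for NRF2 targets, and 0.41, 0.46 and −0.24 for these chaperones, after Lipofectamine, heat shock and benzyl alcohol. Of 27 genes of ATF4 and the integrated stress response, 1 was a higher member (3.70%), Stc2, with a mean change of 0.10 and no membership without Lipofectamine array 3 (list medians 0.40, 0.68 and −0.49). The medians of these lists were thus above 0 with Lipofectamine and heat shock and below 0 with benzyl alcohol, beside −0.02, 0.04 and 0.02 over all genes. Of 31 proteasome subunits 2 were higher (6.45%), Psma5 and Psma4, with mean changes of 0.22 and 0.21, but neither was a member without heat shock array 3 or benzyl alcohol array 1. Psma5 was also no member without benzyl alcohol array 3 or with equal array medians.

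On the lower side chromatin regulators held the largest share, 6 of 53 genes (11.3%, against 2.60% of all genes): Asxl1, the acetyltransferase Crebbp, the remodelling subunits Pbrm1 and Chd4, Phf20 and the DNA methyltransferase Dnmt3a. Apart from Asxl1 these were small. Crebbp, Phf20 and Pbrm1 had mean changes of −0.29, −0.24 and −0.23, Crebbp and Pbrm1 were no members after either rescaling of the arrays, and Phf20 was none after repeated quantile normalization. Asxl1 and Crebbp were none without benzyl alcohol array 3, Pbrm1 none without heat shock array 3 or Lipofectamine array 3, and Phf20 none without heat shock array 1. Cleavage and decay factors of mRNA had 3 lower genes of 36 (Cstf1, Cpsf1 and Cnot4) and 1 higher, Tob1, an antiproliferative partner of the deadenylase, with changes of 0.76, 0.51 and 0.31. Tob1 was no member without benzyl alcohol array 1, and Cpsf1 and Cnot4 were none without Lipofectamine array 3. At Cstf1, a subunit of the cleavage stimulation factor, heat shock was below benzyl alcohol (difference −0.60 ± 0.12 SE, limma adjusted p = 0.0138, but 0.0737, 0.0525 and 0.0817 without heat shock array 2, heat shock array 3 or benzyl alcohol array 1), and Cstf1 was no member without benzyl alcohol array 3 or after either rescaling.

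Of 43 mitosis genes 2 were lower members (4.65%) and of 46 replication genes 1 (2.17%), against 2.60% of all genes. Nothing is read from counts this small. The list medians were −0.58, −0.54 and −0.0047 for mitosis and −0.49, −0.35 and 0.17 for replication after Lipofectamine, heat shock and benzyl alcohol. Zwilch, of the kinetochore complex that recruits dynein, had changes of −0.95, −0.48 and −0.24, with Lipofectamine below benzyl alcohol (difference −0.70 ± 0.12 SE, limma adjusted p = 0.0025). The other 2 were the condensin subunit Smc4 and Timeless, a replication fork protein, and both were no members without benzyl alcohol array 2 or 3. Of 24 genes of the G1 phase 2 were lower (8.33%), Ccne1, a cyclin of S-phase entry (−0.47, −0.36 and −0.43), and the pocket protein Rbl2 (−0.39, −0.74 and −0.43). Cdk9, the kinase that releases paused RNA polymerase II, had changes of −0.53, −0.52 and −0.34. Of 28 genes of glycolysis and hypoxia 2 were lower (7.14%), the glucose transporter Slc2a3 and Ndrg1, and all their treated arrays lay below the control range. Slc2a3 had changes of −0.76, −0.23 and −0.29. Neither gene was a member after repeated quantile normalization, nor was Ccne1.

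In the pigment cell list 1 of 22 genes was a lower member (4.55%, against 2.60% of all genes), Tyr, the first enzyme of melanin synthesis, with changes of −0.22, −0.39 and −0.37. Tyr was no member without Lipofectamine array 3 or after repeated quantile normalization. The mean of the list was 9.58 to 10.01 on the control arrays, 9.47 to 9.50 after Lipofectamine, 9.43 to 9.48 after heat shock and 9.67 to 9.89 after benzyl alcohol. Of 7 macrophage markers 1, Adgre1, was a higher member, with a mean change of 0.21 and no membership without Lipofectamine array 1 or 3. The mean of that list was 5.95 to 6.12 on the control arrays, 5.91 to 6.34 after Lipofectamine, 6.22 to 6.30 after heat shock and 6.19 to 6.35 after benzyl alcohol, with the defining marker Ptprc at 4.61 and Csf1r at 7.98 on the control arrays, and its part in the result was not tested. No marker of epithelial cells, fibroblasts or endothelial cells was a member.

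**Figure D5:**
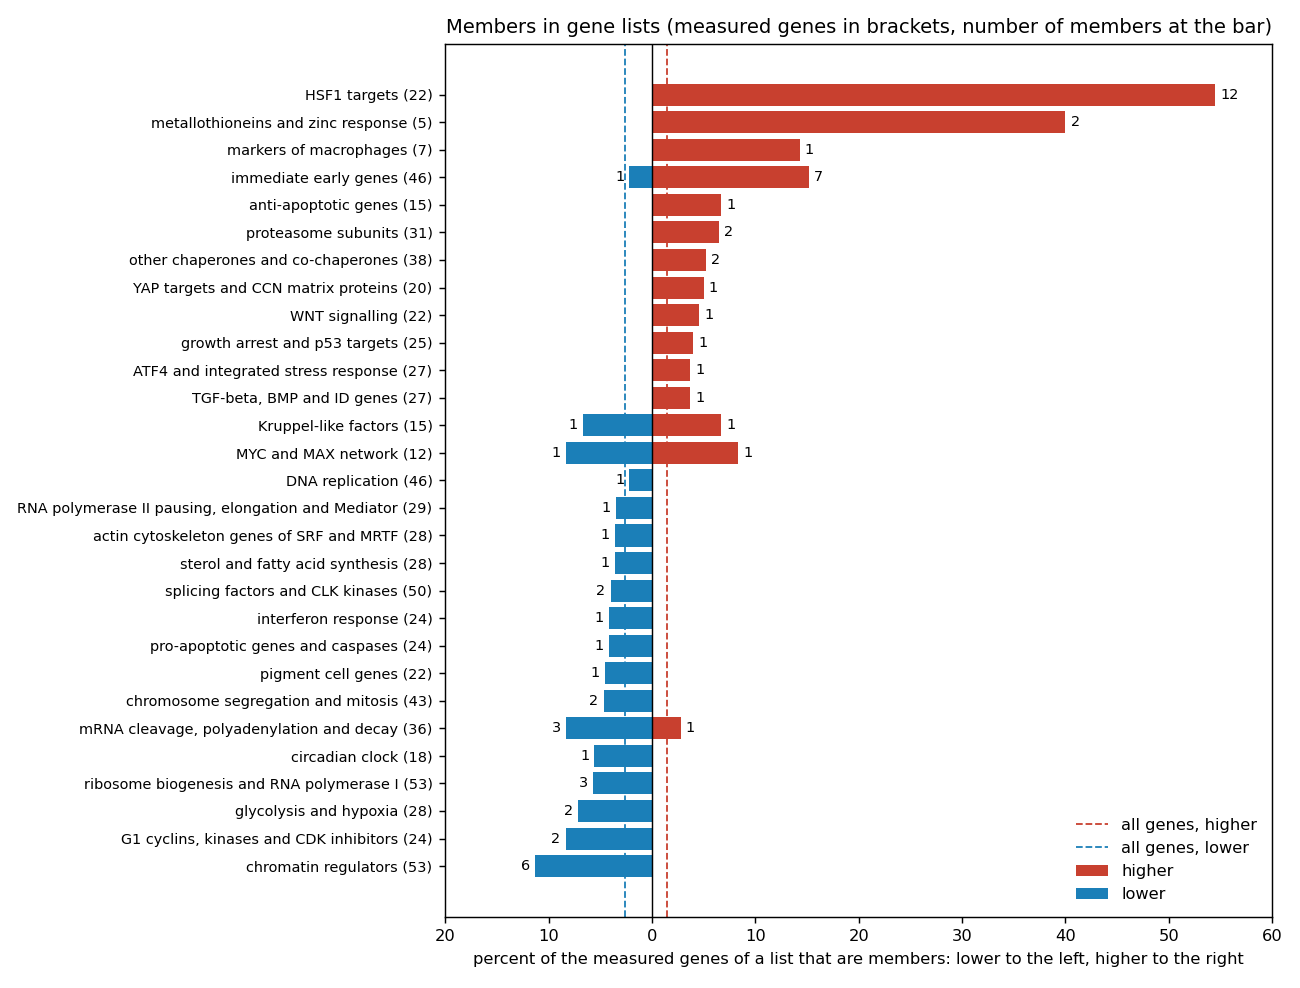
Percent of the measured genes of each list that were higher (right) or lower (left) members, read from the brightest probeset of a gene, for the lists with at least 1 member; numbers at the bars count members, numbers in brackets count measured genes, and dashed lines show all genes (1.49% higher and 2.60% lower). HSF1 targets stand out on the higher side with 12 of 22 genes and chromatin regulators reach the largest lower share with 6 of 53.

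The control arrays were not alike, and control arrays 1 and 3 stood apart from arrays 2, 4 and 5 at Hspb8, Zfand2a, Nr4a1 and Txnip. Over the members the median signed difference between those sets was −0.0050 for higher and −0.02 for lower members, against −0.04 over all probesets. Differences of opposite sign cancel in such a median, so it does not show how far the sets differ. With fewer control arrays to clear, 1589 higher and 2212 lower probesets were members without control arrays 1 and 3, and 3183 and 2771 without arrays 2, 4 and 5. Single control arrays mattered as well, with 557, 951, 540 and 494 higher members without control arrays 1, 2, 3 and 4 and with 902 and 844 lower members without control arrays 1 and 3. Within the treated groups single arrays carried much of the spread of the core. Benzyl alcohol array 2 was the lowest and array 3 the highest of its group at all 12 of the largest higher genes, and Lipofectamine array 2 was the highest and array 3 the lowest of its group at 10 of them. Left out one at a time, these arrays gave 185 (without Lipofectamine array 3) to 611 (without Lipofectamine array 2) higher members. Of the 66 probesets named by the rule for named genes, 35 were members with each of the 14 arrays left out in turn, and all of the 12 largest higher genes except Dnaja4 and Zfand2a are among them.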

How the data were processed

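RNA from 14 cultures of B16-F10 cells was hybridized to Affymetrix mouse arrays, and the log2 signals deposited by the authors were made with RMA from scans read with GCOS 1.2. The RMA version and whether all arrays were processed together are not given in the sources used here. RMA compresses changes of dim probesets, and the number of arrays limits the precision.

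Values were used as deposited. Of 22690 probesets, 64 Affymetrix controls were left out and 22626 tested. Gene names came from the platform annotation: 20380 probesets had 1 symbol, 691 several and 1555 none. Arrays were grouped by their labels. Members followed the rule given above. The 3 stresses were compared with limma 3.58.1 in R 4.3.3 (all 4 groups in 1 fit, moderated F-test and 3 pairs, Benjamini-Hochberg over all probesets, threshold 0.05), checked on simulated data. Members and gene lists were chosen with earlier results of these data known. Named genes were the 12 with the largest mean change on each side, up to 4 members of each list, those with the widest range of changes and those nearest the edge of the rule; other genes were named after their values were seen. Alternatives covered scaling, dim probesets, probeset choice, stricter membership, control arrays, each array left out, array weights, the moderation and a replicate block. The promoter repeat among brighter probesets was added after seeing the data. Promoters came from RefSeq (GRCm38.p6).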

Additional observations from a re-analysis of the deposited data

Results flagged for a closer look

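A control array stood far from the other 4 at 3 of the 66 named probesets, where chance flags about 1 in 20 groups. At Hspa1b the lowest control array, array 3, had a gap of 0.73 of the control range, beyond the critical value of 0.71. The gaps were 0.769 at Srrm1, a splicing coactivator, and 0.775 at Cnot4, a ubiquitin ligase of the deadenylase complex.

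At 30 of the 66 named probesets the size of the shared change differed among the 3 stresses by limma's F-test, adjusted over all probesets. The same test called 15.8% of all probesets. Some probesets were named for a wide range of changes and a call by this test, so nothing is read from the count. With each of the 14 arrays left out in turn, 20 of the 30 calls held. The calls of Nol11, Psma4 and Csnk1e were lost in 9, 7 and 7 of these fits. Among the chaperones the adjusted p was 0.000785, 0.000167 and 0.000465 for the 3 Hspa1b probesets, 3.84e-09 and 2.10e-09 for the Hspb1 probesets, 0.000106 for Dnajb1, 0.0100 for Bag3, 0.0100 for Hsph1 and 0.000642 for Dnaja4. For the immediate early genes it was 0.00058 for Fos, 0.00689 for Egr1, 0.00103 for Nr4a1, 0.000457 for Maff and 0.000316 for Myc, the last on the lower side. The zinc genes Mt1 and Slc30a1 had 0.00229 and 0.0160, and Psma4 had 0.0382. Among the lower genes it was 0.0185 for Klf15, 0.00913 for Asxl1, 0.0143 for Trub2, 0.0149 for Ldb1, 0.00425 for Odf2, 0.00971 for Nckap5l, 0.00453 for Zwilch, 0.00438 for Smc4, 0.0251 for Timeless, 0.0443 for Nol11, 0.0116 for Cstf1, 0.0382 for Csnk1e and 0.00889 for Slc2a3.

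The array's probeset for 18S ribosomal RNA, which no comparison uses, read 10.3 on heat shock array 1 and 8.43 on benzyl alcohol array 1, above every control array.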

How the results depend on the processing

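No named result changed direction under the alternatives run. Of 66 named probesets, 35 were members with each array left out in turn, and of 30 F-test calls 20 held in each. Counts are given as higher and lower members, then calls by the F-test, heat shock against Lipofectamine, heat shock against benzyl alcohol and Lipofectamine against benzyl alcohol. Leaving out dim probesets gave 200 higher members with a heat shock median of 0.25. One probeset per gene, the brightest, gave 185 and 322 members, with 48, 22 and 40 calls by the F-test, the first pair and the last. With all 9 treated arrays outside the control range the counts were 26, 92, 32, 22, 11 and 21, and the medians 0.53, 0.45 and 0.64 higher and −0.42, −0.36 and −0.36 lower (Lipofectamine, heat shock, benzyl alcohol). With each change at least 1.5-fold they were 16, 1, 10, 9, 3 and 9, with medians of 0.85, 1.83 and 1.34 and of −0.67, −0.92 and −0.62. Without control arrays 1 and 3 they were 1589, 2212, 1139, 492, 813 and 816, with heat shock medians of 0.31 and −0.39, and without arrays 2, 4 and 5 they were 3183, 2771, 786, 222, 568 and 610. Leaving out 1 array at a time gave ranges of 185 to 951, 420 to 902, 45 to 172, 18 to 113, 4 to 83 and 29 to 129, and heat shock medians of higher members of 0.21 to 0.25. The unmoderated test called 11 and the treated arrays alone 38 for heat shock against benzyl alcohol. Array weights, where Lipofectamine array 1 had a weight of 10.7, gave 275, 257, 64 and 137 calls, and the methods' threshold of 0.001 gave 40, 28, 8 and 29. Over all 22626 probesets the F-test called 3570 in the main fit, 11322 with array weights and 1551 at the methods' threshold. It called 5770 without control arrays 1 and 3, 5185 without arrays 2, 4 and 5, and 1844 to 4356 without 1 array at a time. Nothing is read from the counts of called members alone. Higher probesets were 29.9% of members without dim probesets, against 38.5%. Replicate numbers did not pair the arrays (correlations of deviations from −0.56 to 0.07), and a replicate block gave 66, 37, 18 and 55 calls. Except where a rule or array set was itself narrowed, the cause was not tested. With 3 arrays a stress, the number of arrays limits the precision, and dim probesets give compressed changes.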
